A study of Mus musculus with 20 samples.

Results

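DNA replication and the repair that goes with it were followed through 41 genes in mouse flank tissue given Ad-VEGF-A164, an adenovirus that carries VEGF-A164, a secreted growth factor of the vessel lining. The genes were listed by function, with earlier results of these data known, so the counts below describe this list. They cover origin licensing, the MCM helicase and its partners, the kinase that fires origins, the sliding clamp and its loader, the polymerases, lagging strand processing, nucleotide supply, control of the G1/S step, chromatin copying and recombination repair. A single-gene probe set, a group of short probes for a transcript, read 40 of the 41 on the array. These were 40 of the 18193 genes read in this way. Chaf1a, the large subunit of the chromatin assembly factor, had none. Where a gene had several probe sets, the brightest over the 19 arrays with a group was used, and a mean signal of at least 300 was required for a test. Of the replication genes, 38 passed, among 13594 genes tested. Pole, the catalytic subunit of the leading strand polymerase, had a mean of 281.1 and Tyms, thymidylate synthase, a mean of 129, so neither was tested. The members closest above the minimum were Rfc3 (391), Chaf1b (395) and E2f1 (397).

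The tissue was profiled on Affymetrix mouse genome arrays without treatment at day 0 (control, 5 arrays, A to E), and at day 5 (4 arrays, B to E), day 20 (5 arrays, A to E) and day 60 (5 arrays, A to E) after Ad-VEGF-A164. A further array is called day 5 A in its title, while its source name and tissue field give the control, so it stood outside all comparisons. Strain, age, sex and dose were not stated in the sources used here, and no group with an empty vector is named. The growth factor, the virus, the injection and the time of harvest therefore cannot be told apart, and no label says whether each array is a separate animal, so that p-values rest on the spread between samples alone, which may be technical. Values are MAS5 signals on a linear scale, log2 changes are differences of group means on the log2(signal + 100) scale, and errors of log2 changes are SE. Signals of different probe sets are not comparable as levels. A gene was called higher or lower at a Benjamini-Hochberg adjusted p under 0.05 in limma over all 13594 genes, and every adjusted p below comes from that fit, except that those of dimmer or further probe sets come from a fit of all probe sets.

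Before a cell divides it copies its DNA once. The origin recognition complex with Cdc6 and Cdt1 loads the MCM helicase on DNA in G1, the Cdc7 and Dbf4 kinase fires these origins in S phase, and the polymerases follow the helicase, held on DNA by the Pcna clamp. Most of these genes are transcribed as cells pass from G1 into S phase, when E2F transcription factors are released from the retinoblastoma protein, whereas genes of the mitotic spindle peak later, through the CHR element and the factor NF-Y. In resting adult skin and muscle few cells pass through S phase, mostly in the basal epidermis and the hair matrix. In bulk tissue, a larger share of cells in S phase and more RNA of these genes per cell cannot be told apart.

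Promoter sequences are shown because E2F sites are a known feature of S phase genes. The windows run from 250 bases before to 50 bases after the transcription start in RefSeq on GRCm38.p6, and were given for 35 of the 41 genes, not for Mcm4, Gins1, Gins2, Pole, Prim2 and Ccne2. The search took the E2F forms TTTCCCGC, TTTCGCGC, TTTGCCGC and TTTGGCGC on both strands. Capitals below mark these matches, and all sequences are written 5′ to 3′ on the strand of the gene. Mcm5 is shown for a pair of overlapping matches, Mcm6 for the largest number of matches among the members, Cdc6 as the licensing gene with the smallest day 5 p, and Orc1 as a gene with a match whose signal was not called higher.

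Mcm5, chr8:75109259-75109558, plus strand: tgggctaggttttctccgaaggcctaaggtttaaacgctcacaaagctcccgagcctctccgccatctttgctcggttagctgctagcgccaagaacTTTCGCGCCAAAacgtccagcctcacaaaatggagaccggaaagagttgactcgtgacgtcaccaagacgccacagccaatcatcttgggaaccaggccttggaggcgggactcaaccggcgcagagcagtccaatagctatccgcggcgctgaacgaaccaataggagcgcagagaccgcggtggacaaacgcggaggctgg

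Mcm6, chr1:128359656-128359955, minus strand: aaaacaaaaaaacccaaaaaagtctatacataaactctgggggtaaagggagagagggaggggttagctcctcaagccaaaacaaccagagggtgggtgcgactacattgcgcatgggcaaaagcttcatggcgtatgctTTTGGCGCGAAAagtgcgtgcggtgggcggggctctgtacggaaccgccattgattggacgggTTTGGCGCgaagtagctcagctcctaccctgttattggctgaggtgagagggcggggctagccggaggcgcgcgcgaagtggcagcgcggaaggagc

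Cdc6, chr11:98907901-98908200, plus strand: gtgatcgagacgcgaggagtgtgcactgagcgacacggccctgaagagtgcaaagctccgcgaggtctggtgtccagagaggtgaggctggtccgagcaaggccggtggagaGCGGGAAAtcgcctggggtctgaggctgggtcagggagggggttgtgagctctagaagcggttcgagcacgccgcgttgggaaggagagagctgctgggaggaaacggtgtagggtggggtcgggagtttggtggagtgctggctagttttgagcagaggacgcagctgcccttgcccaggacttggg

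Orc1, chr4:108579204-108579503, plus strand: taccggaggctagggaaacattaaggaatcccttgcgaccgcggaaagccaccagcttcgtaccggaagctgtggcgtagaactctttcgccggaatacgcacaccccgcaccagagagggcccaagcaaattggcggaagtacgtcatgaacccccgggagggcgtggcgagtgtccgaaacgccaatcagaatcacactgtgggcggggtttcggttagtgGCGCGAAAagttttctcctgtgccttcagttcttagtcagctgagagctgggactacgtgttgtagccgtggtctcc

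In Mcm5, which encodes a subunit of the MCM2-7 helicase, the matches TTTCGCGC and GCGCCAAA overlap and begin at positions -153 and -149, counted from the start site at 0. In Mcm6, another subunit, matches begin at -110, -106 and -47, and the first pair overlaps. In Cdc6 GCGGGAAA begins at -138, and in Orc1 GCGCGAAA begins at -27. At least 1 match lay in 13 of the 35 genes (37.1%), against 704 of all 27025 genes with windows (2.60%). Counted by windows, of which some genes have several, the shares were 31.0% of 42 and 2.26% of 32851. The other genes with a match were Mcm3, Mcm7, Cdt1, Rfc3, Pola1, Pold1, Lig1, Brca2 and Uhrf1. With only the 150 bases nearest the start the shares were 22.9% (8 of 35) and 1.45%. Among members called higher on day 5, 9 of 24 had a match (37.5%), and among tested members not called, 4 of 9 (44.4%). Of 21 genes of the mitotic spindle and kinetochore, listed for comparison, 1 had an E2F match (4.76%). The CHR forms TTTGAA and TTCGAA on both strands lay in 7 of the 35 replication genes (20.0%), 15 of the 21 mitotic genes (71.4%) and 21.7% of all genes. The NF-Y box CCAAT, on both strands, lay in 54.3%, 76.2% and 41.1%. These are counts of letters in a window, not of bound sites.

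**Figure D1:**
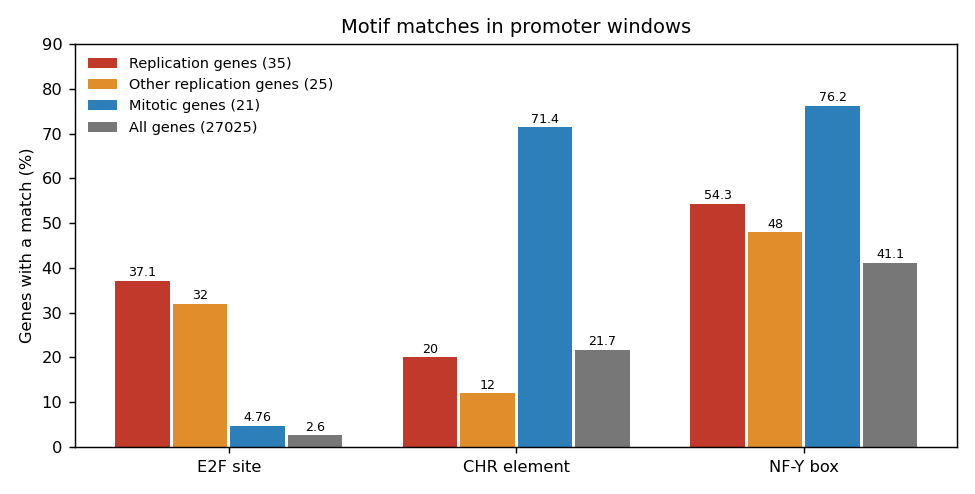
Percent of genes with at least 1 match to the E2F, CHR or NF-Y box letters in RefSeq promoter windows of 300 bases, for the replication genes, a further list of replication genes, mitotic genes and all genes (number of genes in brackets). E2F matches reach 37.1% in the replication genes and 2.6% in all genes, while CHR matches reach 71.4% in the mitotic genes and 20% in the replication genes.

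Some arrays stood apart in the summed signal of the 40 members, to which bright probe sets add most. It ran from 63998 to 106128 in control, from 155234 to 203322 on day 5, from 112194 to 127884 on day 20 and from 82185 to 133226 on day 60, with array B the highest in control and on day 60. Control B also had the highest control sum of epidermis and hair matrix markers, 196559 against 49389.8 to 102287 on the other controls. The ratio of Actb signal at its 3' and 5' ends, a measure of RNA breakdown, ran from 4.15 to 9.12 in control, then from 2.95 to 7.31 (day 5), from 2.60 to 7.56 (day 20) and from 4.32 to 14.0 (day 60). Median signals per array lay between 406 and 569. The array with conflicting labels had a member sum of 206507, above every other array. Its endothelium markers summed to 62893, its glandular epithelium markers to 22830 and its adipocyte markers to 97808. These sums were 56984 to 69304 on day 5 and 13151 to 20750.2 in control for endothelium, 14331 to 21468 on day 5 and 62688 to 87401 in control for glandular epithelium and 95366 to 110826 on day 5 and 142967 to 322411 in control for adipocytes, so that all 3 sums of that array lay outside the control range. Its macrophage (155676), pericyte and smooth muscle (159509) and skeletal muscle (216425) markers also lay outside the control range. For these lists the control ranges were 36724 to 83547, 70569 to 89644 and 501205 to 808510. The day 5 ranges, 134459 to 186309, 146003 to 195524 and 136271 to 531679, held them. By contrast, the epidermis and hair matrix markers of that array summed to 108394. This lay within the control range of 49390 to 196559 and above the day 5 range of 34950 to 82719. No other marker list placed that array inside the control range and outside the day 5 range. Its fibroblast markers summed to 250182, within the ranges of both groups. The counts with this array as a control, and with the Actb ratio in the fit, are given for the comparisons, and the part of these values in the results was not tested further.

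Day 5 against control asked which of these genes differed early after the vector, when vessels are known to grow in this model. On day 5, 29 of the 38 tested members were called higher and 0 lower in limma, and 21 of the 29 rose at least 2-fold. Without Tk1, which reached the minimum signal only through the day 5 arrays, 28 of 37 were called higher. Over all tested genes 16.8% were called higher, 7.04% were called higher and at least 2-fold, and 17.5% were called lower. The members' log2 changes ran between -0.40 (Orc1) and 2.12 (Gins2) with a median of 1.11, against a median of -0.07 for all tested genes. In 29 members the day 5 arrays all exceeded the highest control, as in 14.5% of all tested genes. At an unadjusted p under 0.05, 32 were higher and 0 lower, against 20.7% and 23.3% of all tested genes. If the array with conflicting labels was counted as a control, 24 were called higher, and 32 if it was counted as day 5. Without control B the count was 29, and it was also 29 with the Actb ratio in the fit. The count over all 13594 tested genes, 2285 higher, became 1543 and 2468 with the conflicting array as a control and as day 5. It was 2371 without control B and 2204 with the Actb ratio. With the mean of all probe sets of a gene the median was 0.72. The 9 members not called were Orc1, Mcm10, Cdc45, Rfc3, Rfc4, Fen1, Lig1, Ccne1 and Brca2.

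**Figure D2:**
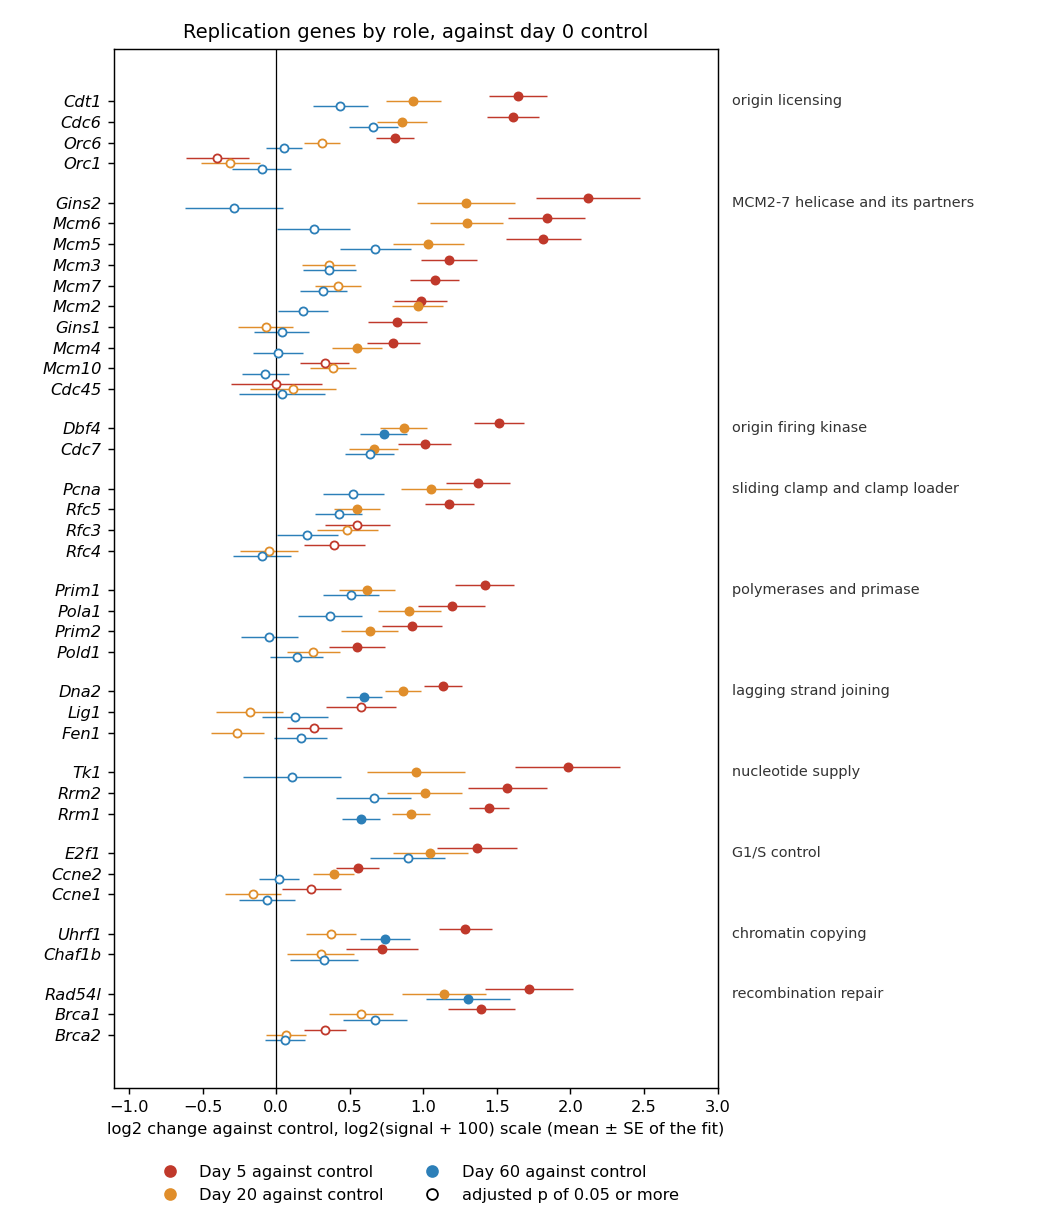
Log2 change of each tested replication gene against control on day 5, day 20 and day 60, on the log2(signal + 100) scale, grouped by role and ordered by the day 5 change, with SE as bars. Filled points have an adjusted p under 0.05. Day 5 points lie furthest right for most genes, and 5 day 60 points are filled, for Dbf4, Rrm1, Dna2, Uhrf1 and Rad54l.

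Of the 4 origin licensing genes, Cdt1, Cdc6 and Orc6 rose on day 5 and Orc1 did not pass. Cdc6, the ATPase that helps load the helicase, had signals of 1296, 914, 871 and 977 on day 5 arrays B to E, against 205, 366, 266, 220.3 and 269.5 on control arrays A to E. All day 5 arrays lay above all controls, and the adjusted p was the smallest of the 4 genes (log2 change 1.61 ± 0.18, adjusted p = 1.79e-06). Later it had 529, 425, 762, 569.9 and 522 on day 20 arrays A to E and 357, 529, 422, 489 and 586 on day 60 arrays A to E. Every day 20 array still exceeded every control, with a log2 change of 0.85 ± 0.17 (adjusted p = 0.000762), and on day 60 array A alone lay within the control range (0.66 ± 0.17, adjusted p = 0.0627). Cdt1, its partner in loading, averaged 7923 ± 1146 on day 5 and 2509 ± 659.9 in control (SD, n = 4 and n = 5), a log2 change of 1.64 ± 0.20 (adjusted p = 4.73e-06). Orc6, a subunit of the origin recognition complex, averaged 1786 ± 135 and 979 ± 107 in the same groups, a smaller rise of 0.81 ± 0.13 (adjusted p = 0.0001). Its day 20 change was 0.31 ± 0.12 (adjusted p = 0.062).

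Orc1, the largest subunit of the same complex, had 1452, 1146, 1905 and 1612 on day 5 arrays B to E, against 2055, 1313, 1945, 3244 and 1952 on control arrays A to E. The groups overlapped, the highest value was control D, and the log2 change was -0.40 ± 0.21 (adjusted p = 0.158). It had 1213, 1809.9, 1558, 1798 and 1737 on day 20 arrays A to E and 1945, 1257, 2423, 1993 and 1968 on day 60 arrays A to E, where day 20 A and day 60 B lay below the lowest control and the others within the control range. Orc1 was the 1 gene of the 40 members with its highest group mean in control, while 36 had it on day 5 and 3 on day 20. Another Orc1 probe set lay under the minimum and averaged 363 on day 5 and 212 in control.

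The MCM2-7 ring, which unwinds the double helix, rose as a group: Mcm2, Mcm3, Mcm4, Mcm5, Mcm6 and Mcm7 were all called higher on day 5, with log2 changes of 0.98, 1.17, 0.80, 1.82, 1.84 and 1.08. Mcm5 had signals of 16917, 12532, 11608 and 10522 on day 5 arrays B to E, against 2419, 6689, 3769.8, 3020.0 and 2968 on control arrays A to E. Control B stood above the other controls and still below every day 5 array, and the log2 change was 1.82 ± 0.25 (adjusted p = 2.44e-05). Its later signals were 7468, 7751, 8303, 7129 and 6196 on day 20 arrays A to E and 4550.0, 9599, 3889, 5813 and 6050.0 on day 60 arrays A to E. On day 60 array B lay above all day 20 arrays, while arrays A, C, D and E were below control B. Mcm6 averaged 10473 ± 2509 on day 5 and 3036 ± 1524 in control (SD, n = 4 and n = 5), a 3.58-fold rise. Mcm2 had 4801, 3471, 3851 and 3746 on day 5 arrays B to E, against 1608, 1916, 2492, 2028 and 1785 on control arrays A to E. All day 5 arrays were above all controls (log2 change 0.98 ± 0.18, adjusted p = 0.000372). On later days Mcm2 had 3628, 5312, 4461, 3875 and 2628 on day 20 arrays A to E and 2829, 2564, 1786, 2146 and 1927 on day 60 arrays A to E. Its day 20 and day 5 arrays overlapped, with a log2 change of -0.02 ± 0.18 between day 20 and day 5 (adjusted p = 0.966).

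Of the partners of the helicase, Gins1 and Gins2, subunits of the GINS complex that joins the MCM ring in the active helicase, rose on day 5, and Mcm10 and Cdc45 did not pass. Gins2 had the largest change of all members (2.12 ± 0.35, adjusted p = 0.000141), with 2863, 2052, 1599 and 1959 on day 5 arrays B to E, against 321, 1163, 378, 301 and 206 on control arrays A to E. Control B, at 1163, stood apart from the other controls and below the lowest day 5 array. Gins1 had 964, 892, 937 and 1169 on day 5 arrays B to E, against 386, 543, 478, 553 and 636 on control arrays A to E. These groups did not overlap either (log2 change 0.82 ± 0.20, adjusted p = 0.00368). Gins1 then had 381, 462, 469, 476 and 660.1 on day 20 arrays A to E and 278, 729, 522, 586 and 638 on day 60 arrays A to E. Array A of both days lay below the lowest control, and day 20 E, day 60 B and day 60 E above the highest. The group means were 490 on day 20, 550 on day 60 and 519 in control. Its day 20 change against control was -0.07 ± 0.19 (adjusted p = 0.804).

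Mcm10, which binds the assembled helicase, had 2206, 1949, 1772 and 1817 on day 5 arrays B to E, against 1674, 991, 2066, 1575 and 1468 on control arrays A to E. The highest control, C, lay above 3 of the 4 day 5 arrays, and the log2 change was 0.33 ± 0.17 (adjusted p = 0.137). On later days it had 1949, 2401, 1895, 2203 and 1669 on day 20 arrays A to E and 1229.7, 1837, 1441, 1290.3 and 1443 on day 60 arrays A to E, and day 20 B and D stood above all controls. Cdc45, which joins GINS and the MCM ring in the active helicase, had 513, 359.8, 596 and 784 on day 5 arrays B to E, against 896, 259, 457, 834 and 500.5 on control arrays A to E. These ranges overlapped in full (log2 change 0.00 ± 0.31, adjusted p = 0.999). Its later signals were 278, 517, 753, 940.2 and 701 on day 20 arrays A to E and 479.5, 766, 394, 722 and 529 on day 60 arrays A to E, of which day 20 D alone lay outside the control range. A dimmer probe set of Cdc45 averaged 625 on day 5 and 256 in control, and was called higher in a fit of all probe sets (log2 change 1.15, adjusted p = 0.00874).

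Both subunits of the kinase that fires licensed origins rose on day 5. Dbf4, its regulatory subunit, had 4845, 5014, 4389.9 and 4234 on day 5 arrays B to E, against 1631, 1959, 1745, 1458 and 1100.2 on control arrays A to E. The day 5 arrays lay far above the controls (log2 change 1.51 ± 0.17, adjusted p = 1.97e-06). It then had 2033, 3099, 3044, 3306 and 3287 on day 20 arrays A to E and 2281, 3420.3, 2670.2, 2204 and 2801 on day 60 arrays A to E. All of these exceeded all controls, with log2 changes of 0.87 ± 0.16 on day 20 and 0.73 ± 0.16 on day 60 (adjusted p = 0.000411 and 0.0333). Cdc7, the catalytic subunit, averaged 2100.4 ± 363 on day 5 and 993 ± 166 in control (SD, n = 4 and n = 5), a log2 change of 1.01 ± 0.18 (adjusted p = 0.000234). A dimmer Cdc7 probe set had a change of -0.47 (adjusted p = 0.103).

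Pcna, the clamp that holds the polymerases on DNA, rose on day 5, and of its loader subunits Rfc5 was called higher while Rfc3 and Rfc4 were not. Pcna had 24611, 21942, 18366 and 16793 on day 5 arrays B to E, against 5572, 12345, 7952, 7761 and 6616 on control arrays A to E. Control B was the highest control and lay below the lowest day 5 array, and the log2 change was 1.37 ± 0.22 (adjusted p = 9.03e-05). Its later signals were 15946, 16355, 16956, 14380.3 and 17673 on day 20 arrays A to E and 8737, 17965, 12890.2, 8147 and 10729 on day 60 arrays A to E. The day 20 arrays all lay above control B, whereas on day 60 arrays B and C did so (day 20 log2 change 1.05 ± 0.21, adjusted p = 0.000688). Rfc5 had 2316, 1859, 1904 and 2047 on day 5 arrays B to E, against 769, 1092, 797, 746 and 832 on control arrays A to E. The groups were well apart (log2 change 1.18 ± 0.17, adjusted p = 2.78e-05). On later days Rfc5 had 1159, 1309.6, 1257, 1243 and 1417 on day 20 arrays A to E and 971, 1514, 752, 1257 and 1491 on day 60 arrays A to E, with all day 20 arrays above all controls.

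Rfc3 had 549, 537, 397 and 404 on day 5 arrays B to E, against 287, 289, 256, 304 and 301 on control arrays A to E. All day 5 arrays were above all controls, yet the log2 change of 0.55 ± 0.22 had an adjusted p of 0.0589. It then had 469.5, 389.6, 565, 329 and 484 on day 20 arrays A to E and 239, 724, 336, 328 and 244 on day 60 arrays A to E, with day 60 B alone far above the rest. Rfc4 had 1817, 1618, 1388 and 1026 on day 5 arrays B to E, against 987, 1023, 1422, 1227 and 773 on control arrays A to E. Here day 5 D and E fell within the control range (log2 change 0.39 ± 0.21, adjusted p = 0.154), and the later signals, 1250.2, 856, 937, 1227 and 929 on day 20 arrays A to E and 630.5, 1254, 1334, 1039 and 859 on day 60 arrays A to E, stayed within that range except for day 60 A, which was lower. A further Rfc4 probe set was called higher on day 5 (log2 change 0.82, adjusted p = 0.00148).

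Among the polymerases, Prim1, Pola1, Prim2 and Pold1 were all called higher on day 5. Prim1, the small subunit of primase, which starts each new strand with RNA, had 4099, 4736, 4313 and 3958 on day 5 arrays B to E, against 983, 2275, 1655, 1876 and 1210.4 on control arrays A to E. Every day 5 array was well above control B, the highest control (log2 change 1.42 ± 0.20, adjusted p = 2.72e-05). It then had 2877, 2395, 2407, 2111 and 2316 on day 20 arrays A to E and 1502, 2556, 2072, 2352 and 2925 on day 60 arrays A to E. Day 20 D lay below control B, and the day 20 change was 0.62 ± 0.19 (adjusted p = 0.0185). Prim2, the large primase subunit, averaged 2108 ± 676 on day 5 and 1059 ± 311 in control (SD, n = 4 and n = 5), a log2 change of 0.92 ± 0.20. Pola1, the catalytic subunit of the polymerase that works with primase, averaged 2863 ± 433 on day 5 and 1202 ± 230.3 in control, a change of 1.19 ± 0.23. Pold1, the catalytic subunit of the lagging strand polymerase, averaged 1332 ± 16.4 on day 5 and 894 ± 202 in control, the smallest change of the 4 (0.55 ± 0.19, adjusted p = 0.0298). Pole, under the minimum, ran between 594 and 989.6 on day 5 and between 26.7 and 218 in control. In a fit with no minimum its log2 change was 2.54 ± 0.41 (adjusted p = 0.000134 over 18193 genes).

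Of the genes that finish the lagging strand, Dna2 rose on day 5 and Fen1 and Lig1 did not pass. Dna2, a nuclease and helicase that trims flaps, had 2490.0, 2516, 2968 and 2829.8 on day 5 arrays B to E, against 933, 1262, 1397, 1236 and 1086 on control arrays A to E. The day 5 range was narrow and clear of the controls (log2 change 1.13 ± 0.13, adjusted p = 2.37e-06). It then had 2099, 2381, 2575, 1886 and 2198 on day 20 arrays A to E and 1969.6, 2053, 1532, 1886 and 1738 on day 60 arrays A to E. Every array of both later groups exceeded every control, with log2 changes of 0.86 ± 0.12 on day 20 and 0.60 ± 0.12 on day 60 (adjusted p = 2.70e-05 and 0.0222).

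Fen1, the flap endonuclease, had 17504, 13002, 10746 and 11002 on day 5 arrays B to E, against 9931, 13782, 10858, 10661 and 8774 on control arrays A to E. Control B lay above day 5 C, D and E (log2 change 0.26 ± 0.19, adjusted p = 0.305). It had 9789.9, 6405, 11086, 11285 and 7033 on day 20 arrays A to E and 13287, 13238, 9458, 11716 and 12717 on day 60 arrays A to E, with day 20 B and E below the lowest control. A dimmer Fen1 probe set averaged 722 on day 5 and 270.1 in control and was called higher (log2 change 1.15, adjusted p = 0.000748). Lig1, the ligase that seals the fragments, had 2202, 2577, 2781 and 2312 on day 5 arrays B to E, against 1179, 1277, 1738, 1539 and 2686 on control arrays A to E. Control E lay within the day 5 range and the other controls below it (log2 change 0.58 ± 0.24, adjusted p = 0.0686). Its later signals were 1339, 1429, 1329.6, 1247 and 1760.0 on day 20 arrays A to E and 1629, 3473, 1238, 1614 and 1533 on day 60 arrays A to E, near the controls except for day 60 B.

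Of the genes that supply nucleotides, Rrm1, Rrm2 and Tk1, the 3 tested, were all called higher on day 5. Rrm1, the large subunit of ribonucleotide reductase, had the smallest day 5 p of all members, with 3633, 4277, 3317 and 3677 on day 5 arrays B to E, against 1339, 1786, 1191, 1319.9 and 981 on control arrays A to E. No day 5 array came near a control (log2 change 1.44 ± 0.14, adjusted p = 3.14e-07). On later days it had 2391, 2846, 2579, 2316 and 2631 on day 20 arrays A to E and 1821, 2199, 1787, 2156 and 1986 on day 60 arrays A to E. All of these were above all controls, by 0.92 ± 0.13 on day 20 and 0.57 ± 0.13 on day 60 (adjusted p = 2.71e-05 and 0.0391). A dimmer Rrm1 probe set changed by 0.23 on day 5 (adjusted p = 0.36).

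Rrm2, the small subunit that is made in S phase, had 29663, 21171, 19665 and 17052 on day 5 arrays B to E, against 4273, 14816, 8246, 6060.0 and 5853 on control arrays A to E. Control B was again the highest control and below all day 5 arrays (log2 change 1.57 ± 0.27, adjusted p = 0.000186). It then had 14730.5, 17109, 15339, 13932 and 11777 on day 20 arrays A to E and 10879, 15674, 7722, 10874 and 13242 on day 60 arrays A to E, so that control B lay above 3 of the 5 day 20 arrays. Tk1, the thymidine kinase of dividing cells, had 799, 1017, 1305 and 906 on day 5 arrays B to E, against 355, 385, 163.6, 63.6 and 69.9 on control arrays A to E. It was called higher on day 5, with a log2 change of 1.98 ± 0.35 on the log2(signal + 100) scale (adjusted p = 0.000266). Among the members it alone reached the minimum of 300 through the day 5 arrays, as its mean over the 15 others was 293, and without it 28 of 37 were called higher on day 5. The ratio of its group means was 4.85, against a fold of 3.95 on the log2(signal + 100) scale, so the size depends on the added 100. Its later signals were 403, 542, 569, 337 and 359 on day 20 arrays A to E and 127, 97.3, 110.1, 334 and 471 on day 60 arrays A to E. The day 20 change was 0.95 ± 0.33 (adjusted p = 0.0375), with control A and B above the lowest day 20 array. Tyms, under the minimum, ran between 119 and 274 on day 5 and between 12.1 and 162 in control, which overlap. Fitted without a minimum, over 18193 genes, Tyms still exceeded control by 0.75 ± 0.23 log2 units in the day 5 group (adjusted p = 0.0209). The same fit placed the day 20 group 0.65 ± 0.22 above control (adjusted p = 0.0375).

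Of the genes that control the G1/S step, E2f1 and Ccne2 rose on day 5 and Ccne1 did not pass. E2f1, the transcription factor that drives S phase genes, had 325, 651, 726 and 695 on day 5 arrays B to E, against 152, 50.5, 309, 210.3 and 162 on control arrays A to E. Day 5 B lay just above the highest control and the other day 5 arrays well above it (log2 change 1.36 ± 0.27, adjusted p = 0.00071). It then had 647, 373, 353, 455 and 438 on day 20 arrays A to E and 298, 564, 342, 299 and 499 on day 60 arrays A to E. All day 20 arrays exceeded all controls (1.05 ± 0.26, adjusted p = 0.00427), and on day 60 arrays A and D did not. Ccne2, cyclin E2, had 2911, 3075, 2113 and 1810.4 on day 5 arrays B to E, against 1518, 1737, 1830.4, 1760.0 and 1306 on control arrays A to E. Day 5 E lay within the control range (log2 change 0.55 ± 0.15, adjusted p = 0.00648). Later it had 2321, 2180.3, 2039, 2291 and 1953 on day 20 arrays A to E and 1472, 1521, 1848, 1755 and 1646 on day 60 arrays A to E, above all controls on day 20, while on day 60 only array C was. Ccne1, cyclin E1, had 1123, 893, 1986 and 1276 on day 5 arrays B to E, against 1101, 987, 1181, 1318 and 778 on control arrays A to E. Only day 5 D stood above the controls (log2 change 0.24 ± 0.20, adjusted p = 0.385). Its later signals were 859, 971, 1419, 731 and 829 on day 20 arrays A to E and 865, 1091, 1081, 1079 and 957 on day 60 arrays A to E. A dimmer Ccne1 probe set was called higher on day 5 (log2 change 0.74, adjusted p = 0.037).

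Uhrf1 and Chaf1b, which restore DNA methylation and nucleosomes on the new strands, both rose on day 5. Uhrf1, which brings the maintenance methylase to new DNA, had 4114, 4463, 4119 and 4175 on day 5 arrays B to E, against 1290.4, 1948, 1663, 1921 and 1618 on control arrays A to E. The 4 day 5 values were nearly equal and more than any control (log2 change 1.28 ± 0.18, adjusted p = 2.43e-05). It then had 1943, 2415, 2582, 2513 and 1643 on day 20 arrays A to E and 2487, 3503, 1972, 2737 and 3998 on day 60 arrays A to E. Day 20 overlapped the controls (0.37 ± 0.17, adjusted p = 0.108), while on day 60 all arrays lay above all controls (0.74 ± 0.17, adjusted p = 0.0415). Chaf1b, a subunit of the chromatin assembly factor, averaged 534 ± 86.3 on day 5 and 291 ± 89.6 in control (SD, n = 4 and n = 5; log2 change 0.72 ± 0.24, adjusted p = 0.0284).

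Of the recombination genes, which rescue broken forks, Brca1 and Rad54l rose on day 5 and Brca2 did not pass. Brca1 had 1239.5, 1423, 1410.2 and 1373 on day 5 arrays B to E, against 259, 513, 679, 458 and 451 on control arrays A to E. The lowest day 5 array was far above the highest control (log2 change 1.39 ± 0.23, adjusted p = 0.000127). It then had 556, 864, 854, 715 and 689 on day 20 arrays A to E and 481, 1295, 591, 819.9 and 947 on day 60 arrays A to E, where day 20 A, day 60 A and day 60 C lay within the control range. A dimmer Brca1 probe set changed by 0.05 on day 5 (adjusted p = 0.89). Rad54l, a motor protein of strand exchange, had 1536, 1123, 1085 and 1143 on day 5 arrays B to E, against 467, 169, 244, 253 and 437 on control arrays A to E. Day 5 stood clear of the controls (log2 change 1.72 ± 0.30, adjusted p = 0.000217). On later days it had 348, 759, 1249, 689.5 and 1158 on day 20 arrays A to E and 764, 1564, 633, 941 and 734 on day 60 arrays A to E. The day 60 arrays were all above the controls and 1 day 20 array, A, was not.

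Brca2, which acts with Brca1 in repair by recombination, had 1453, 1285, 1442 and 1584 on day 5 arrays B to E, against 1304, 1199, 1018, 963 and 1149 on control arrays A to E. Day 5 C lay below control A, and the change was small (log2 0.33 ± 0.14, adjusted p = 0.0811). The later signals were 1264, 1102, 1136, 1179 and 1229 on day 20 arrays A to E and 876, 1655, 1024, 1235 and 1186 on day 60 arrays A to E, within the control range apart from day 60 A below it and day 60 B above it.

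**Figure D3:**
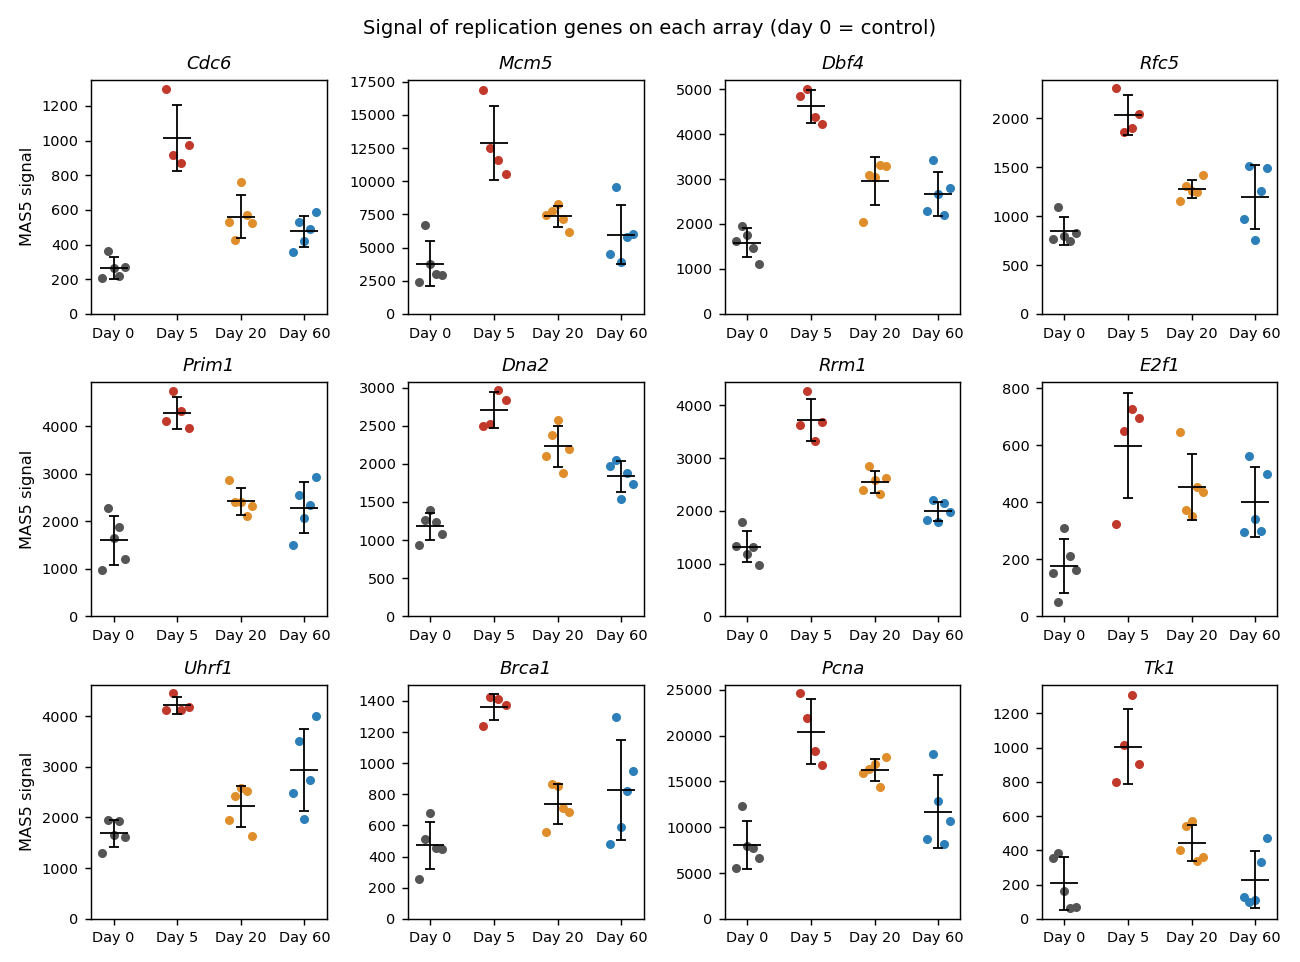
MAS5 signal of 12 replication genes on each array of control, day 5, day 20 and day 60, with the group mean and SD. Points are arrays in letter order, and each panel has its own axis from 0. Day 5 arrays lie above all controls in all 12 panels, and day 20 arrays all lie below the day 5 arrays in 9 of the 12.

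A gene of the array can have several probe sets, and their agreement was set beside the calls. Of 62 tested probe sets of the members, 48 were called higher and 0 lower on day 5 in a fit of all probe sets, where 15.6% of all probe sets were called in each direction. Among the 20 members with several tested probe sets, 19 had all of them changed in the same direction, 11 had all of them called higher, and none had calls in both directions. The exception in direction was Cdc7. For Cdc45, Ccne1, Fen1 and Rfc4, not called on the brightest probe set, a dimmer probe set was called higher, so that 33 of 38 members had at least 1 probe set called higher, as did 20.1% of all tested genes. For Brca1, Rrm1, Dna2, Pold1 and Cdc7 a dimmer probe set was not called. Of the probe sets used, 7 have the suffix x_at and 4 s_at, which mark probes that can match other sequences, and those of Mcm5, Mcm6, Rrm2 and Fen1 are of the x_at kind. The place of each probe set on its transcript was not analysed here.

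**Figure D4:**
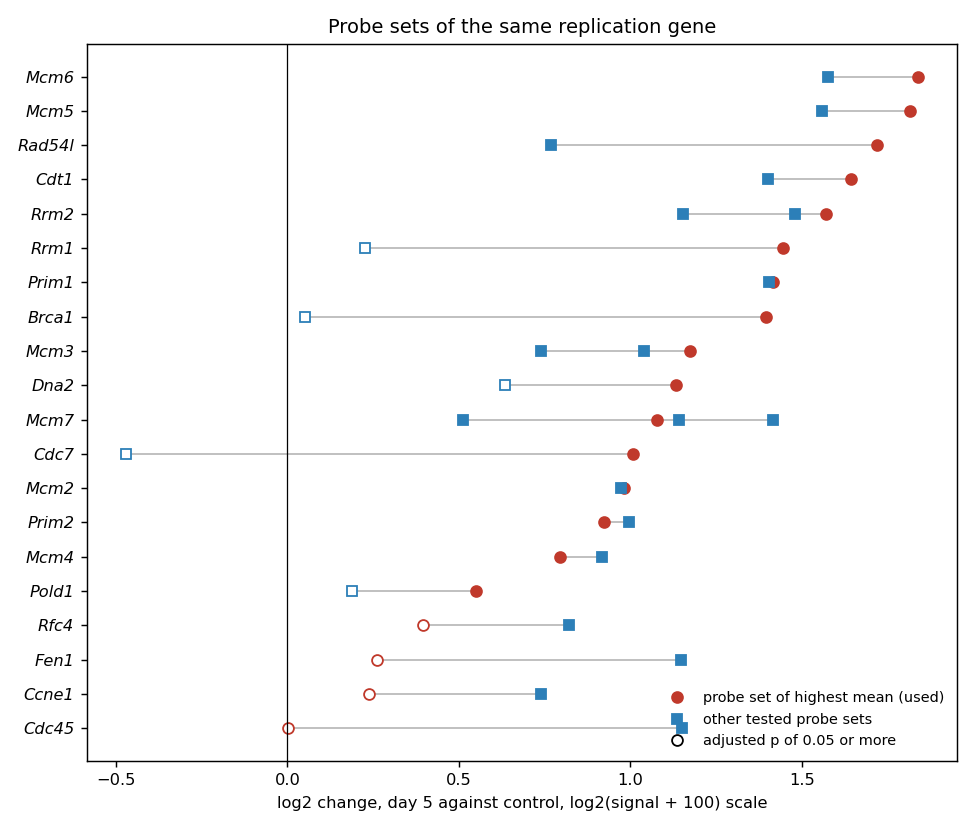
Log2 change of day 5 against control for each tested probe set of the 20 replication genes with several. Circles are the brightest probe set, which the text uses, squares are the others, and open symbols have an adjusted p of 0.05 or more. The probe sets of Mcm2, Prim1 and Prim2 lie close together, while those of Cdc7, Brca1, Rrm1 and Cdc45 lie more than 1 log2 unit apart.

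Day 20 against control asked whether these genes still differed at the later stage of the response. On day 20, 21 of the 38 tested members were called higher and 0 lower in limma, and 7 rose at least 2-fold. Over all tested genes 15.6% were called higher, 5.9% were called higher and at least 2-fold, and 14.5% were called lower. The median change of the members was 0.56, against -0.06 for all genes. In 14 members all day 20 arrays lay above all controls, as in 12% of all tested genes. At an unadjusted p under 0.05, 27 were higher and 0 lower, against 19.8% and 21.1% of all tested genes. The 21 included Cdc6 and Cdt1 of licensing, both subunits of the origin kinase, both primase subunits, Pola1, Rrm1, Rrm2 and Tk1. The changes above 1 were those of Mcm6 (1.29 ± 0.25), Gins2 (1.29 ± 0.33), Rad54l (1.14 ± 0.28), Pcna (1.05 ± 0.21), E2f1 (1.05 ± 0.26), Mcm5 (1.03 ± 0.24) and Rrm2 (1.01 ± 0.25). Members higher on day 5 and not called on day 20 included Mcm3 (0.36 ± 0.18), Mcm7 (0.42 ± 0.16), Brca1 (0.58 ± 0.22), Uhrf1 (0.37 ± 0.17) and Gins1 (-0.07 ± 0.19), with adjusted p-values of 0.146, 0.0514, 0.051, 0.108 and 0.804. If the array with conflicting labels was counted as a control, the day 20 count was 4, and with the Actb ratio in the fit it was 17. The count over all 13594 tested genes, 2123 higher, fell as well, to 1320 and 1915 in these fits. Day 5 and day 20 were set against the same controls.

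Set directly against each other, day 20 and day 5 showed lower signal of many of these genes on day 20. In that comparison 0 of the 38 members were called higher and 12 lower in limma, while 3.05% of all tested genes were called higher and 2.25% lower. The median change was -0.51, against 0.01 for all genes. At an unadjusted p under 0.05, 0 were higher and 19 lower, against 10.3% and 9.6% of all tested genes. In 20 members all day 20 arrays lay below all day 5 arrays, as in 5.93% of all tested genes. The genes called lower came from most roles: Cdc6 (-0.76 ± 0.18), Cdt1 (-0.71 ± 0.20) and Orc6 (-0.50 ± 0.13) of licensing, Mcm3 (-0.82 ± 0.19), Mcm7 (-0.66 ± 0.17) and Gins1 (-0.90 ± 0.20) of the helicase, Dbf4 (-0.65 ± 0.17), Rfc5 (-0.63 ± 0.17), Prim1 (-0.80 ± 0.20), Rrm1 (-0.53 ± 0.14), Uhrf1 (-0.92 ± 0.18) and Brca1 (-0.82 ± 0.23). Uhrf1 had the smallest adjusted p, 0.00529. Tk1 had the largest difference, -1.03 ± 0.35, without passing (adjusted p = 0.0992), but it reached the minimum signal only through the day 5 arrays. Mcm2 (-0.02 ± 0.18), Mcm10 (0.06 ± 0.17) and Cdc45 (0.11 ± 0.31) stood at the other end, with Orc1 at 0.09 ± 0.21. The count depended on single arrays: it was 3 without day 5 B or day 5 C, 4 without day 5 D or day 5 E, 5 without day 20 A and 6 without day 20 D, and 2 with the array of conflicting labels as a control. With the Actb ratio in the fit it was 12. The count over all 13594 tested genes, 306 lower, moved as well. It was 195, 179, 186 and 183 without day 5 B, C, D and E, and 192 and 194 without day 20 A and D. With the array of conflicting labels as a control it was 125, and with the Actb ratio 343.

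On day 60, 5 of the 38 members were called higher against control and 0 lower in limma, while 0.368% of all tested genes were called higher and 0.765% lower. The 5 were Rad54l (1.3 ± 0.28), Uhrf1 (0.74 ± 0.17), Dbf4 (0.73 ± 0.16), Dna2 (0.60 ± 0.12) and Rrm1 (0.57 ± 0.13), and in each all day 60 arrays lay above all controls, as in 1.23% of all tested genes. Their adjusted p-values were 0.0327, 0.0415, 0.0333, 0.0222 and 0.0391. The median of the 38 changes was 0.29, against 0.01 for all genes, and 15 were higher and 0 lower at an unadjusted p under 0.05, against 8.36% and 7.5% of all tested genes. The count moved with single arrays, and the count over all tested genes, 50 higher, moved with it. Without control A, control E or day 60 A, 0 members were called, and 4, 5 and 6 of all genes. Without control D, day 60 B or day 60 E, 1 member was called, and 16, 23 and 15 of all genes. Without control C it was 2 members and 21 of all genes, and without day 5 E or day 20 D it was 3 members, and 23 and 22 of all genes. Without control B or day 60 C it was 10 members, and 326 and 188 of all genes. With only control and day 60 in the fit, or with the array of conflicting labels as a control, 0 members and 0 of all genes were called higher, and with the mean of all probe sets of a gene 0 and 7. With the Actb ratio in the fit 6 members were called.

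Day 60 against day 20 gave 0 members higher and 6 lower in limma, with 11% of all tested genes called higher and 11.2% lower, so that the share of the members called lower, 15.8%, was near that of all genes. At an unadjusted p under 0.05, 2 were higher and 14 lower, against 18.1% and 16.6% of all tested genes. The 6 were Gins2 (-1.58 ± 0.33), Mcm6 (-1.04 ± 0.25), Mcm2 (-0.78 ± 0.17), Prim2 (-0.68 ± 0.19), Mcm4 (-0.54 ± 0.17) and Mcm10 (-0.46 ± 0.16). With the Actb ratio in the fit the count was 2, with the array of conflicting labels as a control it was also 2, and without control B, or without day 60 B, it was 9. It was 4 without any of day 20 A, day 20 D, day 60 A or day 60 C. The count over all tested genes, 1522 lower, was 1215 with the Actb ratio and 1205 with the conflicting array as a control. Without control B and day 60 B it was 1617 and 1485. Without day 20 A, day 20 D, day 60 A and day 60 C it was 1388, 1354, 1488 and 1383. Day 60 against day 5 gave 0 higher and 24 lower, with 12.2% of all tested genes called in each direction, and a median of -0.75 against 0.05 for all genes. At an unadjusted p under 0.05, 0 were higher and 28 lower, against 19.3% and 17.2% of all tested genes. The count of 24 was 17 with the array of conflicting labels as a control, 19 with the Actb ratio in the fit and 21 to 30 with an array left out. All tested genes had 1658 lower, and 1300, 1463 and 1326 to 1738 in the same settings. The largest differences of the members were Gins2 (-2.41 ± 0.35), Tk1 (-1.87 ± 0.35) and Mcm6 (-1.59 ± 0.26). Tk1 was tested only because its day 5 signal lifted its mean over the minimum, so its difference from day 5 is no independent result.

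Put in order, the group means of 20 of the 38 tested members ran control, day 60, day 20, day 5, from low to high. In 34 the day 20 mean lay below the day 5 mean, in 32 the day 20 mean lay above control, and in 31 the day 60 mean did. These are orders of means, and the same orders were not counted over all tested genes. Over the 40 members, the mean log2(signal + 100) per array had an SD of 0.15 in control, 0.05 on both day 5 and day 20, and 0.23 on day 60. On day 60 array B had the highest signal of its group in 26 of the 40 members, and array C the lowest in 20. In control, array B had the highest signal in 20 members and array A the lowest in 18.

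The rest of the pathway was read through lists of further genes. Over all tested genes 16.8% were called higher and 17.5% lower on day 5, and differences of the further lists from these shares were not tested. Of 31 other tested replication genes, 12 were called higher on day 5, with a median change of 0.30. Dscc1, of the loader that aids sister chromatid cohesion, rose by 1.55 ± 0.26 and Topbp1, which activates the checkpoint kinase Atr, by 1.37 ± 0.19 on the log2 scale (adjusted p = 0.000132 and 2.62e-05). Among 14 other nucleotide supply genes, 4 were higher and 1 lower, with Dck, deoxycytidine kinase, at 1.25 ± 0.25 and Dut, which removes dUTP, at 0.92 ± 0.14. The gene that was lower was Rrm2b, the reductase subunit used outside S phase, at -0.63 ± 0.18 (adjusted p = 0.0104). It averaged 3646 ± 385 on day 5 and 5675 ± 263 in control (SD, n = 4 and n = 5), without overlap, opposite to Rrm1 and Rrm2.

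Of 14 other recombination and mismatch repair genes, 4 were higher on day 5, where 16.8% of all tested genes were higher and 17.5% lower. Exo1, a nuclease, rose by 1.14 ± 0.18 (adjusted p = 0.000101). Of 8 checkpoint genes 3 were higher, with Chek1 at 1.21 ± 0.19 and Atr at 0.55 ± 0.14. Of 15 other E2F and S phase cyclin genes 6 were higher and 2 lower. Skp2, which marks the kinase inhibitor Cdkn1b for breakdown, and E2f8 rose by 1.25 ± 0.19 and 1.24 ± 0.22, and Tfdp2, a partner of E2F proteins, and Rbl2, a relative of the retinoblastoma protein found in resting cells, fell by 0.66 and 0.59 on the log2 scale. Of 10 other chromatin copying genes 6 were higher, with Hells and Nasp at 1.43 ± 0.20 and 1.39 ± 0.21.

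Of 12 inhibitors of cyclin dependent kinases and genes of resting cells, 1 was higher and 4 lower on day 5, against 16.8% and 17.5% of all tested genes. Gas1 and Ccng1, which slow growth, fell by 1.11 and 1.10 on the log2 scale (adjusted p = 0.00405 and 0.0232), and Cdkn2d, an inhibitor of Cdk4 and Cdk6, rose by 0.74 ± 0.15. Of 5 D type cyclins and their kinases 3 were higher. Cdk6 was at 1.19 ± 0.16 on day 5 and 1.27 ± 0.15 on day 20, and Ccnd1, cyclin D1, at 1.06 ± 0.18 and 0.56 ± 0.17. On day 20 the further replication genes had 7 higher and 1 lower of 31, against 15.6% and 14.5% of all tested genes. The lower one was Rfc1, the large subunit of the clamp loader (-0.38 ± 0.14, adjusted p = 0.0425).

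Of 23 tested mitotic spindle and kinetochore genes, 22 were called higher on day 5, with a median of 1.85, and 20 on day 20, with a median of 1.17. Over all tested genes 16.8% and 15.6% were called higher on these days. The other mitotic gene on day 5 was Tpx2, a spindle assembly factor, at -0.44 ± 0.19, which was not called (adjusted p = 0.0742). The medians of the replication genes on day 5 and day 20 were 1.11 and 0.56. Bub1, a checkpoint kinase at kinetochores, rose by 2.80 ± 0.30 on day 5 and 2.07 ± 0.28 on day 20, and Ccnb2, cyclin B2, by 2.64 ± 0.37 and 1.87 ± 0.34. Day 20 against day 5 gave 8 of 23 lower, with a median of -0.67, and day 60 against control 4 higher. The same shares over all tested genes were 2.25% and 0.368%. The difference between the lists was not tested.

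Markers of other cell types changed over the same days, and their part in the counts above was not tested. Over all tested genes 16.8% were called higher and 17.5% lower on day 5, and 15.6% and 14.5% on day 20. On day 20 against day 5 these shares were 3.05% and 2.25%. Of 10 endothelium markers 9 were higher on day 5 (median 2.03) and 10 on day 20 (median 1.92), with 0 called in either direction between day 20 and day 5 (0 higher and 2 lower at an unadjusted p under 0.05). Their summed signal was 13151 to 20750 in control, then 56984 to 69304 (day 5), 45799 to 72713 (day 20) and 15041 to 28579 (day 60), so that day 5 and day 20 overlapped. The replication genes had 12 lower in that comparison. Of 7 tested macrophage markers 5 were higher on day 5 (median 2.11), 2 higher and 1 lower on day 20, and 3 lower on day 20 against day 5 (median -1.47). Msr1, a scavenger receptor, fell by 2.31 on the log2 scale on day 20 against day 5 (adjusted p = 0.00145). The summed macrophage signal was 36724 to 83547 in control, then 134459 to 186309 (day 5), 59443 to 119130 (day 20) and 27441 to 158848 (day 60).

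Of 8 pericyte and smooth muscle markers 6 were higher on day 5 and 8 on day 20, of 8 fibroblast markers 3 were higher and 3 lower on day 5, and of 4 tested neutrophil markers 3 were higher on day 20. T and NK cell markers had low signal, with 1 of 7 tested and a summed signal of 1364 to 2601 over the 19 arrays, and of 3 tested B and plasma cell markers 1 was lower on day 5. Of 10 epidermis and hair matrix markers 0 were called in limma on day 5 (0 higher and 0 lower at an unadjusted p under 0.05) and 5 were lower on day 20, with summed signals of 49390 to 196559 in control, then 34950 to 82719 (day 5), 8443 to 125292 (day 20) and 94049 to 188033 (day 60). All 6 glandular epithelium markers and 5 of 6 adipocyte markers were lower on day 5, as were 3 of 8 skeletal muscle markers. Of 4 tested markers of muscle progenitors 1 was higher on day 5. The lists are short, and differences of their counts from the shares over all tested genes, 16.8% higher and 17.5% lower on day 5, were not tested. The summed signals were 142967 to 322411 in control, then 95366 to 110826 (day 5), 90441 to 122400.0 (day 20) and 50968 to 233854 (day 60) for adipocytes, and 501205 to 808510.0 in control, then 136271 to 531679 (day 5), 265044 to 652253 (day 20) and 77775 to 1031150.0 (day 60) for skeletal muscle. Markers of fat, muscle and epidermis were thus all present in the control flank tissue. The share of replication signal that each cell type gave was not analysed here.

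**Figure D5:**
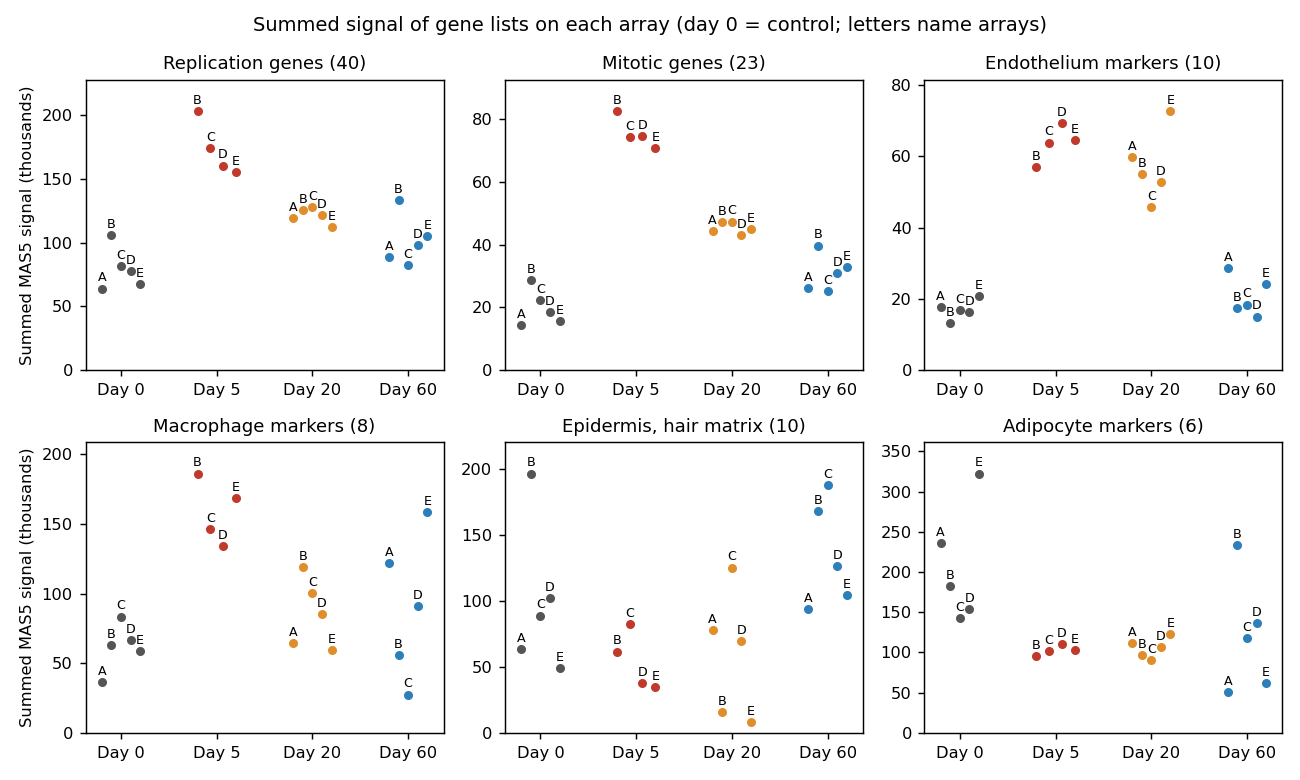
Summed MAS5 signal, in units of 1000, of the 40 replication genes, 23 mitotic genes and markers of endothelium, macrophages, epidermis with hair matrix and adipocytes on each array, with letters for arrays and 1 panel a list. Replication, mitotic and macrophage sums are lower on day 20 than on day 5, while endothelium sums overlap between these days. Control B and day 60 B have the highest replication sums of their groups.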

How the data were processed

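RNA of mouse flank tissue was read on 20 Affymetrix arrays, of which 19 had a group by their labels. The deposited intensity values are MAS5 signals on a linear scale, 1 per probe set and array, which the authors made with MAS5 in GCOS 1.3, per the submitters' processing notes. They were already scaled, per the labels, and no further normalization was applied. Nothing else of the RNA handling was stated in the sources used here. The number of arrays limits the precision.

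The table held 45101 probe sets, 64 of them AFFX controls. The platform annotation gave 34945 others a single symbol, 932 several and 9211 none, and 34741 of those with a single symbol matched the current gene table. Tests used limma 3.58.1 in R 4.3.3 on log2(signal + 100), with 1 fit of group means over 19 arrays, eBayes with a trend, tests on both sides and Benjamini-Hochberg adjustment over 13594 genes. The spread between probe sets was examined in a second fit of all probe sets with a mean of at least 300. The fit was tested on simulated data.

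The array with the day 5 A title entered only alternatives, as its labels conflict. Letters of the titles were shared between groups, and no label says that they pair arrays, so the main fit did not pair them. Deviations from the group means correlated over 0.1 in 11 of 27 pairs with the same letter. The share over 0.1 among pairs with different letters was not computed, so this count alone cannot decide whether letters pair the arrays. When each array was set against all arrays of other groups, 3 of 19 correlated best with one of their own letter. Members and gene lists were chosen with earlier results of these data known. Values per array were given for the member of each role with the smallest day 5 p, for Mcm2, Pcna, Rrm2, Tk1, Ccne1, Ccne2 and E2f1, for members not called on day 5, for the 3 members with the largest and the 3 with the smallest change between day 20 and day 5, and for members called on day 60. The choice of Gins2, Msr1, Tpx2 and single genes outside this rule followed their values. Of each further list, the 2 called members with the largest day 5 change were named, and those called against most of their list. A further gene is not reported here. Promoters were RefSeq windows on GRCm38.p6, searched for exact letters. Alternatives covered the pseudocount, the minimum, normalization, the probe set rule, the fit, the conflicting array, the Actb ratio and the omission of each array.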

Additional observations from a re-analysis of the deposited data

Results flagged for a closer look

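Some arrays lay far from the others of their group, with a gap to the nearest array that exceeded Dixon's limit at the 95% level. This held in 11 cases, or 6.71% of the tests, each of a gene in a group of 4 or 5 arrays, and chance alone gives about 1 in 20. Control B stood high in Mcm7 (signal 7747), Gins2 (1163), Rfc5 (1092) and Pole (218). Day 60 B stood high in Rfc3 (724) and Lig1 (3473), and day 60 D in Pole (319). Day 5 B was high in Rad54l (1536) and low in Mcm3 (2650). Day 20 D was low in Gins2 (417) and day 20 A in Dbf4 (2033).

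The change against control differed between day 20 and day 5, by limma's test of the difference itself, in 12 members, all lower on day 20. The log2 differences of day 20 and day 5 were -0.92 for Uhrf1, -0.90 for Gins1, -0.82 for Mcm3, -0.82 for Brca1, -0.80 for Prim1, -0.76 for Cdc6, -0.71 for Cdt1, -0.66 for Mcm7, -0.65 for Dbf4, -0.63 for Rfc5, -0.53 for Rrm1 and -0.50 for Orc6.

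The array with conflicting labels, outside all comparisons, had a summed signal of 206507 for the 40 members. The highest control had 106128, and the highest day 5 array 203322.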

How the results depend on the processing

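The precision rests on 4 or 5 arrays a group. On day 5, 29 of 38 tested members were called higher in the report and 21 of 28 with a minimum of 1000, where fewer genes were tested. The other alternatives gave 24 to 32, and omission of an array 27 to 32. Members called lower on day 5 numbered 1 with array weights and 0 to 1 with an array left out (1 without control B), and 1 on day 20 with array weights, each time Orc1. On day 20, 21 members were called higher, and 4 with the conflicting array as a control, while the count over all tested genes went from 2123 to 1320. On day 60 the 5 calls became 9 with array weights, 0 with only the compared groups, 0 with the mean of all probe sets of a gene, 2 with the letter as a replicate block, 0 with the conflicting array as a control and 0 to 10 with an array left out. Day 20 against day 5 had 12 members lower, 2 with the conflicting array as a control and 3 to 14 with an array left out. The counts over all tested genes were 306, 125 and 179 to 363. Day 60 against day 20 had 6 lower, 2 with the conflicting array as a control and 2 with the Actb ratio as a covariate. It had 1 higher (0 in the report) with quantile normalization or the mean of all probe sets (Fen1), and 0 to 1 with an array left out (Uhrf1, without day 60 C). The log2 change of Mcm3, day 60 against day 20, was -0.58 (adjusted p = 0.0452, against a change of 0.00 and an adjusted p of 0.991 in limma) with a probe set without an x or s suffix, an alternative chosen after seeing the data. With the letter as a replicate block 29 were called on day 5, 22 on day 20 and 8 lower on day 20 against day 5. Only 3 of 19 arrays correlated best with their own letter (r of -0.28 to 0.35 over 27 pairs), so the letters may be names only. The cause of these changes was not tested.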
